A study of Vitis vinifera with 2 samples.

Results

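The 116 miRNAs described here are 21 nt long, start with uridine and were each read from at most 1 predicted precursor in each library. They were picked from the 299 predicted miRNAs of the deposited table by length, first base and number of precursors. These limits take no account of read counts. The definition also left out 12 miRNAs by name, of which 5 met the same limits, so that 121 would have passed without that step. With those 5, the highest count among miRNAs listed in both libraries would have been 20765 reads, against 969 in the group. It would have been 3445 against 1625 in NCT only, and 2897 against 21 in CT only. Those 5 were all abundant, so the step limits the group's counts. The names used are those of the deposited table, which numbers the miRNAs differently from the article.

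Small RNAs were sequenced from micropropagated plantlets of the grapevine cultivar 'Muscat Hamburg' (Vitis vinifera) at the age of 6 weeks. The non-cold-treated (NCT) library came from plantlets grown at 26°C and harvested at 0 h, and the cold-treated (CT) library from plantlets kept at 4°C for 4 h. The labels name leaf as the tissue, and the methods describe the shoot apex with a developed leaf, pooled over several plantlets. With 1 library per condition, no difference has a replicate check, and each test on reads compares these libraries and not the conditions.

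Plant miRNAs are cut by DICER-LIKE1 from the stem of a folded transcript, and either arm of the stem (5p or 3p) can give the mature strand. The mature strand guides an ARGONAUTE protein to complementary transcripts, which are then cleaved or held back from translation. In Arabidopsis, strands of this length with a 5′ uridine are those that AGO1, the main miRNA effector, preferentially takes up. The group therefore holds candidates with the length and first base usual for a plant miRNA. Each was read from at most 1 predicted precursor in each library. These limits alone do not show that a candidate is a miRNA. The study's criteria also ask for more than 50 reads on the precursor in a library. For 96 of the candidates, the mature strand had fewer than 50 reads in both libraries.

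The 10 miRNAs with the highest counts are shown first, because they carry most of the reads. Bases 2 to 8 from the 5′ end, the seed, are in capitals, and T stands for U as in the deposited table.
novel_mir_168: tTATGGATggcagaaggttta
novel_mir_200: tTCCTCAAgtagacatgcatg
novel_mir_199: tTGCTGAGagagtcgtctgcc
novel_mir_158: tTAGATGAtcatcaacaaaca
novel_mir_3: tGTGGATGagaagagatgcga
novel_mir_162: tGGGCTAGctatgaaagggta
novel_mir_172: tGTGGACAttgtttcagggct
novel_mir_144: tGATAATAtgaacagacggtg
novel_mir_129: tAAGTAGCttccttgacggtc
novel_mir_83: tTCCTGCGgtttctcggcgac
None of these seeds recurred. The 116 miRNAs had 116 distinct seeds, so the group could not be divided into families by a shared seed. Strands can differ in seed and still be alike, as novel_mir_126 and novel_mir_125 share a run of 15 nt. Outside the group, 4 of the 116 seeds recurred in other miRNAs of the table, those of novel_mir_224, novel_mir_285, novel_mir_251 and novel_mir_188. The most read of these partners, novel_mir_154 (aGAAGAGAgagagtacagcta), had 14210 reads in NCT and 11480 reads in CT, against 0 and 11 reads for novel_mir_285 (tGAAGAGAcgagttcccatag), which has the same seed.

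The group took 6516 reads of NCT and 4038 reads of CT. These were 7.01% (95% Wilson interval 6.85 to 7.18) and 4.14% (4.02 to 4.27) of the reads of the whole table, respectively. Both values and their order depended on the names left out, since with the 5 of them that met the same limits the shares were 25.8% in NCT and 30.3% in CT. The most read of those 5, novel_mir_166, had 10867 of the reads in NCT and 20765 in CT. The reads were unevenly spread, since the 5 miRNAs with the highest counts made up 60.7% of them in NCT and 56.8% in CT. Read depth was taken as the clean reads of each library, 21355400 in NCT and 25915815 in CT, and counts were scaled to these totals as tags per 1000000 clean reads (TPM). At this depth 1 read was worth 0.0468 TPM in NCT and 0.0386 TPM in CT. Intervals of shares, levels and ratios cover counting error only, because 1 library per condition gives no spread between samples. PCR copies of a molecule are counted as separate reads, so the intervals may be too narrow even for counting error.

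Of the 116 miRNAs, 39 were listed in both libraries, 38 in NCT only and 39 in CT only. The shares of 33.6%, 32.8% and 33.6% compare with 34.4%, 35.8% and 29.8% over all 299 miRNAs. Among the 59 single-precursor miRNAs of 21 nt that start with another base they were 33.9%, 39.0% and 27.1%. These shares are given as a description, and no difference between the groups was tested. No miRNA was listed with fewer than 5 reads, so a miRNA that is not listed may have had up to 4 reads, or more if no precursor was predicted in that library.

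Listing in both libraries was more frequent at higher counts, up to 99 reads. This order follows in part from the lowest listed count of 5 reads. A miRNA whose higher count is 5 to 9 reads has little room to be listed in both. The higher of both counts had a median of 36 reads (range 9 to 969) for miRNAs listed in both libraries, 9 reads (5 to 1625) for those in NCT only and 7 reads (5 to 21) for those in CT only. Of the 46 miRNAs with 5 to 9 reads, 2 were listed in both libraries, against 13 of 22 with 20 to 49 reads and 7 of 8 with 50 to 99 reads. At 100 reads or more the share was lower again, with 8 of 12 listed in both and 4 in NCT only. The other miRNAs of the table followed the same order at low counts, with 3 of 69 listed in both at 5 to 9 reads and 11 of 20 at 20 to 49 reads. Abundant miRNAs listed in one library came from NCT alone, with 5 of the 38 at 50 reads or more, against 0 of the 39 in CT. Over all 299 miRNAs the numbers were 11 of 107 and 7 of 89. That count of 0 depends on the definition of the group, since 1 of the miRNAs left out by name was listed in CT only with 2897 reads. That miRNA, novel_mir_261, has the sequence of novel_mir_112 shifted by 1 nt. Novel_mir_112, also left out by name, was listed in NCT only with 3445 reads.

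**Figure D1:**
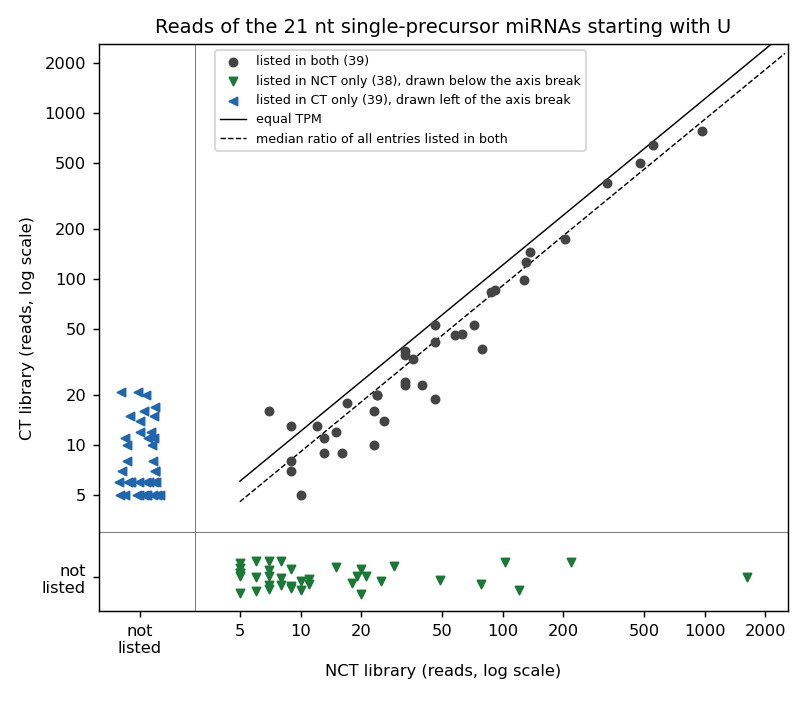
Reads of each of the 116 miRNAs in the NCT library (x axis, log scale) and in the CT library (y axis, log scale), with miRNAs listed in one library drawn beyond the grey lines. The solid line marks equal TPM and the dashed line the median ratio of all 103 miRNAs of the table listed in both libraries, and most of the 39 grey points lie below the solid line, while the miRNAs listed in CT only end at 21 reads.

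**Figure D2:**
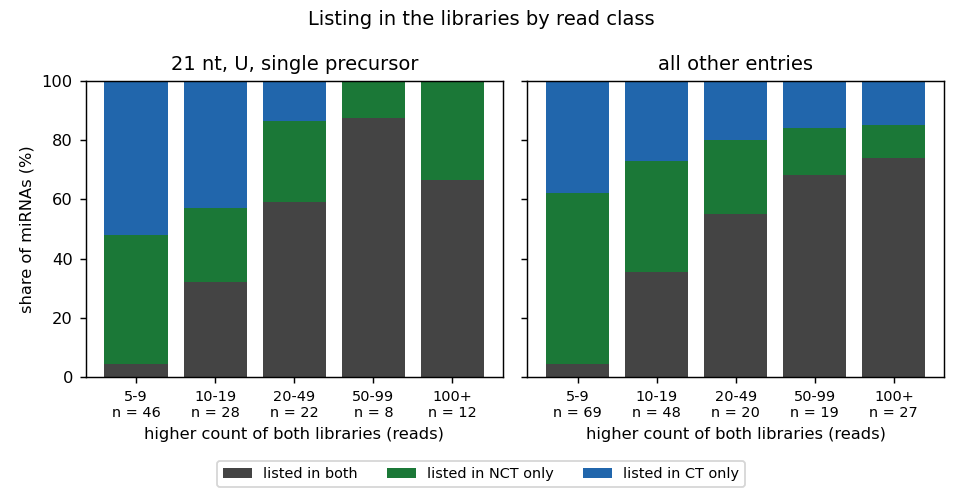
Share of miRNAs (%) listed in both libraries (grey), in NCT only (green) and in CT only (blue), by the higher of both counts in reads, for the 116 miRNAs on the left and the 183 other miRNAs on the right. In both panels 4.35% of the miRNAs with 5 to 9 reads were listed in both libraries, and no miRNA of the group with 50 reads or more was listed in CT only.

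The most read miRNA of the group, novel_mir_168, was listed in the NCT library only. It had 1625 reads there, which is 76.1 TPM (95% Wilson interval 72.5 to 79.9), and no listed read in CT, where a count of 0 allows 0.116 TPM at a floor of 3 reads. Taken against that floor it was 657-fold lower in CT. Since 4 reads or more could also go unlisted, folds against this floor are not strict bounds, here or for the miRNAs that follow. This miRNA alone accounted for 24.9% of the group's NCT reads. The group's summed level gave a log2 (CT/NCT) of -0.97 (exact 95% interval -1.03 to -0.91) with it and of -0.56 (-0.62 to -0.50) without it. When the 5 miRNAs left out by name were included it was 0.023 (-0.0013 to 0.048), so the sum was lower in CT only under the definition used.

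Novel_mir_168 was read from the 3p arm. Its precursor lies on the minus strand at chr6:13594470-13594631, within a 5′ UTR, and the mature strand at chr6:13594480-13594500. These and all later positions refer to the 12X build of the PN40024 genome, with regions as annotated in the supplementary tables. The precursor of novel_mir_167 (tCTACCTGagggaatgacgtt), another 3p miRNA of the group, lies on the same strand at chr6:13592728-13592962, over coding sequence and intron, with 1507 nt between them. The counts of these neighbours differed in form, as novel_mir_167 had 88 reads in NCT and 84 reads in CT. Its log2 ratio of -0.35 was close to the median of -0.41 of the 103 miRNAs listed in both libraries.

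The study's target prediction gives 4 ungapped sites for novel_mir_168, shown here in the transcript's direction because they are what the strand could pair with. Capitals mark the bases that form Watson-Crick pairs with the miRNA.
GSVIVT01001391001: AgcCCUUCUGCCAUCCAUAA
GSVIVT01022265001: UgAACCUauUGCCAUuCAUgA
GSVIVT01024592001: gAAuuUUCUGuCAUCuAUAg
GSVIVT01037180001: AAAuCUUuUGCCAgCCAUgA
The first site had 18 Watson-Crick pairs and 1 G-U pair over 20 aligned bases, the most of the 4. The others had 14 to 16 Watson-Crick pairs and 3 to 6 G-U pairs. No transcript levels were analysed here.

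Novel_mir_162, also of the 3p arm, had 218 reads in NCT, or 10.2 TPM (8.94 to 11.7), and was not listed in CT. Against the floor of 3 reads it was 88.2-fold lower in CT. Novel_mir_137 (tTATGGGActacatgtgttac) had 120 reads in NCT, or 5.62 TPM (4.70 to 6.72). Against the same floor it was 48.5-fold lower. Its precursor is intergenic, at chr3:17925343-17925446 on the minus strand. These are the 3 most read miRNAs listed in NCT only, all from the 3p arm.

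Novel_mir_35 (tATATAGGctttgaggatgga), with 103 reads in NCT, and novel_mir_44 (tCATCGAGactttaggcggaa), with 78 reads in NCT, complete the 5 miRNAs of 50 reads or more that were listed in NCT only. They fall outside the rule for named miRNAs and were chosen once their counts were known. Both precursors are intergenic and on the plus strand, at chr13:9059798-9059972 and chr13:22627360-22627512, respectively. The remaining 33 miRNAs listed in NCT only had 5 to 49 reads.

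The most read miRNAs listed in CT only were far less abundant. Novel_mir_264 (tGGCAGATagattcgcgcgtg) and novel_mir_256 (tCTTGAACagagcaatgagca) each had 21 reads in CT, or 0.810 TPM (0.530 to 1.24). Novel_mir_273 (tTTGGCACacttgagaagtct) had 20 reads, or 0.772 TPM. Against a floor of 3 reads in NCT they were 5.77-fold, 5.77-fold and 5.49-fold higher in CT. The other 36 miRNAs listed in CT only had 5 to 17 reads, at which the fold against that floor does not pass 4.67.

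For 2 miRNAs listed in one library, a longer form of the same sequence was listed in the other. These are the pairs that share a run of 16 nt or more with another miRNA of the table, among 27898 pairs compared. The shared run is in capitals.
novel_mir_152: TTTGGAGGAGATGAGGACAAG
novel_mir_274: cTTTGGAGGAGATGAGGACAAGt
novel_mir_251: TATTCCTTGATATTGCATGTT
novel_mir_95: TATTCCTTGATATTGCATGTTt
Novel_mir_152, of 3p origin, was listed in NCT only with 49 reads. The whole of its sequence lies within novel_mir_274, which is 23 nt long and was listed in CT only with 58 reads. Summed, the pair had 49 reads in NCT and 58 reads in CT, with a log2 ratio of -0.04 (exact 95% interval -0.61 to 0.54, p = 0.923 by a two-sided Fisher's exact test). Taken alone, novel_mir_152 had been 19.8-fold lower in CT against the floor of 3 reads, so the difference in its listing was not found in the sum. Novel_mir_251 had 10 reads, all in CT, and is contained in novel_mir_95, which is 22 nt long and was listed in NCT only with 7 reads. Their sum gave a log2 ratio of 0.24 (-1.31 to 1.87, Fisher's exact test, p = 0.811). The other 75 library-specific miRNAs of the group had no such partner.

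The longest run shared by members of the group was 15 nt, between novel_mir_126 and novel_mir_125, which fall outside the rule for named miRNAs. Both were read from the 3p arm and listed in NCT only, with 11 and 7 reads, respectively.
novel_mir_126: tcagagAAGTGGCTCAAATGT
novel_mir_125: tagaaAAGTGGCTCAAATGTt
The shared run starts at position 7 of the former and at position 6 of the latter, so the strands are offset by 1 nt.

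Among the 39 miRNAs listed in both libraries, the level was mostly lower in CT. In 37 of them the log2 (CT/NCT) was below 0, and the median was -0.54. A 95% interval of the median, -0.70 to -0.35, describes the spread between the 39 miRNAs. They are not replicates of a condition, so it gives no confidence in a difference between conditions. Over all 103 miRNAs listed in both libraries, 76.7% were below 0 and the median was -0.41, so a shift in the same direction was present over the table. Against that median, 23 of the 39 were lower and 15 were higher. Scaling by the median of ratios sets the table's median to 0, so it gives the same division by construction, with a median of -0.13 for the 39. The direction of a ratio near 0 therefore depended on the scaling.

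The counts allowed few of these ratios to be told from equal levels. The exact 95% interval lay below 0 for 12 of the 39, against 30.1% of all miRNAs listed in both libraries, and above 0 for 0 of the 39, against 7.77%. It lay below the table's median of -0.41 for 3 miRNAs (12.6% of all) and above it for 3 (15.5% of all). The intervals of the other 33 held that median. The table's median includes the 39 miRNAs and is itself uncertain, with a 95% interval over miRNAs of -0.52 to -0.245. The intervals of novel_mir_200, novel_mir_158 and novel_mir_3 reach into that range, so their place beside the median is less certain.

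**Figure D3:**
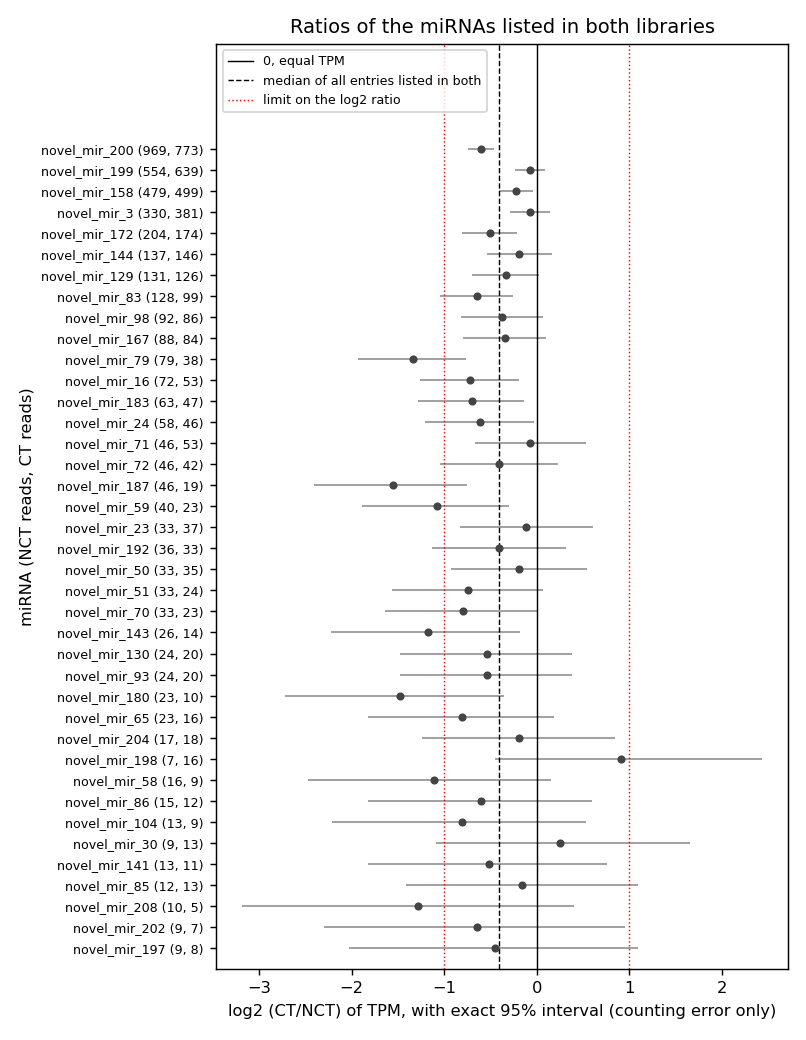
Log2 (CT/NCT) of the TPM of the 39 miRNAs listed in both libraries, ordered by the higher of both counts, with exact 95% intervals for counting error and the reads in NCT and CT in parentheses. The ratios ranged from -1.55 for novel_mir_187 to 0.91 for novel_mir_198, and the intervals widen as the counts fall.

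The 3 miRNAs below the table's median were novel_mir_200, novel_mir_79 and novel_mir_187. Novel_mir_200 had 969 reads in NCT and 773 reads in CT, or 45.4 TPM (42.6 to 48.3) against 29.8 TPM (27.8 to 32.0). Its log2 ratio was -0.61 (exact interval -0.74 to -0.47, Fisher's exact test, p = 2.75e-18, adjusted over the 299 miRNAs 2.93e-17). It is a 3p miRNA with an intergenic precursor at chr9_random:179159-179348 on the plus strand. It was the most read miRNA listed in both libraries, and its interval did not reach -1.

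Novel_mir_79 (tGAAATGTaggcaaggaaaag) had 79 reads in NCT and 38 reads in CT, with a log2 ratio of -1.34 (-1.93 to -0.76, Fisher's exact test, p = 1.49e-06, adjusted 7.55e-06). Its precursor lies in a 5′ UTR, at chr16:21954900-21955091 on the plus strand. Novel_mir_187 (tCTCAGCAaccaagtagagcc), named after its values were seen, had 46 NCT and 19 CT reads, a log2 ratio of -1.55 (-2.41 to -0.76, exact p = 4.67e-05, adjusted 0.000191). Both fell past a log2 ratio of -1, but neither reached 10 TPM in a library. With the median of ratios or edgeR TMM, novel_mir_79 was at -0.92 and no longer passed -1.

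The 3 miRNAs above the table's median were novel_mir_199, novel_mir_158 and novel_mir_3. Novel_mir_199 had 554 reads in NCT and 639 reads in CT, or 25.9 TPM (23.9 to 28.2) against 24.7 TPM (22.8 to 26.6). Its log2 ratio of -0.07 (-0.24 to 0.09, Fisher's exact test, p = 0.383) did not differ from 0 beyond counting error. Its precursor of 81 nt, intergenic at chr9:19105535-19105615 on the minus strand, was the shortest of those on hand. Novel_mir_3 had 330 reads in NCT and 381 in CT, giving a log2 ratio of -0.07 (-0.29 to 0.15, exact p = 0.522). Both are 5p miRNAs, and both lay above 0 on median-of-ratios scaling, at 0.34 for each.

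Novel_mir_158 had 479 reads in NCT and 499 reads in CT, or 22.4 TPM against 19.3 TPM. The log2 ratio was -0.22 (-0.40 to -0.04, Fisher's exact test, p = 0.0174, adjusted 0.0281), with an interval that only just cleared the table's median. Its precursor is intergenic, at chr5:24742118-24742235 on the minus strand.

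The intervals of the other abundant miRNAs were wider and held the table's median. Novel_mir_172 had 204 and 174 reads, a log2 ratio of -0.51 (-0.81 to -0.21). Novel_mir_144 had 137 and 146 reads, a log2 ratio of -0.19 (-0.53 to 0.16). Novel_mir_129 had 131 and 126 reads, a log2 ratio of -0.34 (-0.70 to 0.03), and its precursor lies over coding sequence and intron on chromosome 2. Novel_mir_83, in a 3′ UTR and intron on chromosome 16, had 128 and 99 reads, a log2 ratio of -0.65 (-1.04 to -0.26).

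Of the less abundant ones, novel_mir_16 (tATCATGCtctttaggactcc) had 72 and 53 reads, a log2 ratio of -0.72 (-1.26 to -0.19). Novel_mir_183 (tGGGAGGAagatagcgaggaa) had 63 and 47 reads, a log2 ratio of -0.70 (-1.28 to -0.13). With novel_mir_79 they had the lowest ratios among miRNAs of 50 reads or more in a library. Novel_mir_71 (tAATGTAGtagtggtgaaggg), with 46 and 53 reads, had a log2 ratio of -0.07 (-0.67 to 0.53), among the 3 highest. Only 2 of the 39 ratios were above 0, those of novel_mir_198 with 7 reads in NCT and 16 in CT (log2 ratio 0.91) and of novel_mir_30 with 9 and 13 reads (log2 ratio 0.25), both chosen for mention by that count. Their intervals held 0.

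By the limits of the study's methods (a log2 ratio over 1 in size, p at or under 0.001, and 10 TPM in at least one library), 2 miRNAs of the group were lower in CT and 0 were higher. Only 6 of the 116 reached 10 TPM, which corresponds to 214 reads in NCT and 260 reads in CT. They were novel_mir_168, novel_mir_200, novel_mir_199, novel_mir_158, novel_mir_3 and novel_mir_162, and the lower pair were novel_mir_168 and novel_mir_162, both listed in NCT only. In the whole table, 28 miRNAs reached this level, of which 25% were lower and 17.9% higher in CT. With other scalings (the total of the table, the median of ratios or edgeR's TMM), novel_mir_162 fell under 10 TPM and only novel_mir_168 remained. When the 5 miRNAs left out by name were counted too, 5 were lower and 1 was higher. The 1 that was higher, novel_mir_261, and 1 of the lower, novel_mir_112, have the same sequence shifted by 1 nt.

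Without the limit of 10 TPM, 23 of the 116 were lower and 10 were higher in CT, against 23.1% and 10.7% of all 299 miRNAs. Of the 23, 21 were listed in NCT only, and the other two were novel_mir_79 and novel_mir_187. All 10 that were higher were listed in CT only. A count of 0 is set to 0.01 TPM for the ratio, so any miRNA listed in one library passes the limit on the ratio, and these counts say mainly in which library a miRNA was listed.

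The mature strand came from the 5p arm in 61 and from the 3p arm in 55 of the 116 miRNAs. In each of the 39 miRNAs listed in both libraries, the same arm was listed in NCT and in CT. The definition leaves little room for a change, since each sequence has at most 1 precursor per library. Over all 103 miRNAs listed in both libraries the arm differed in 2, which were read from several precursors. These 39 were read more often from the 3p arm, with 23 against 16, whereas 5p was the more frequent arm among miRNAs listed in NCT only (22 against 16) and in CT only (23 against 16). Single-precursor miRNAs of 21 nt that start with another base had 38 from the 5p and 21 from the 3p arm, and 15 against 5 among those listed in both libraries. The difference between the groups was not tested.

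**Figure D4:**
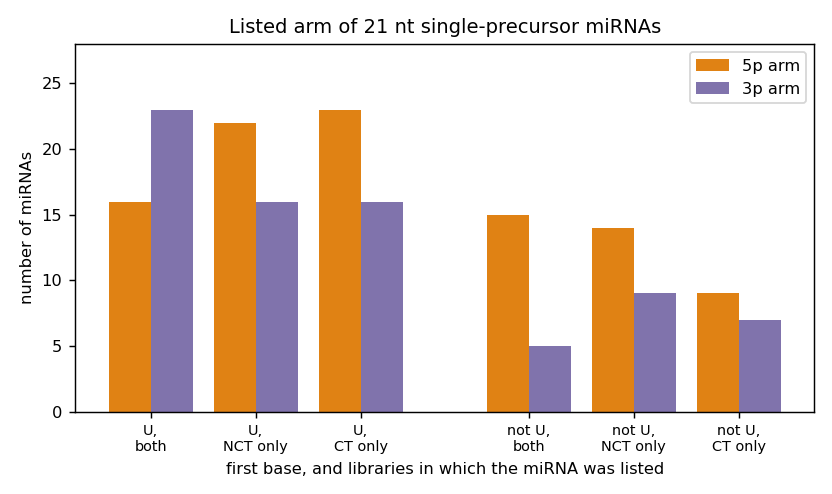
Number of 21 nt single-precursor miRNAs listed from the 5p arm (orange) and the 3p arm (purple), for those starting with U on the left and with another base on the right, by the libraries in which they were listed. The 3p bar is the higher one only for miRNAs that start with U and were listed in both libraries, at 23 against 16.

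The base composition was uneven beyond the first base. Guanine was the most frequent base at position 2, in 41 of the 116 (35.3%), followed by cytosine in 33, uridine in 27 and adenine in 15. In the other miRNAs of 21 nt of the table, uridine took 34.3%, adenine 32.4%, guanine 23.8% and cytosine 9.52% of that position. Guanine was found at position 19 in 46.6% of the group and in 29.5% of the others. At positions 5, 13 and 18 it was less frequent in the group, at 28.4%, 27.6% and 31.0% against 46.7%, 41.0% and 43.8%. The GC content had a median of 47.6% (range 23.8 to 66.7), the same median as over the whole table. Positions were looked at after the values were seen and are given as a description.

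Precursor sequences were on hand for 20 of the miRNAs, 19 of which had 50 reads or more. They are spread over 16 chromosomes or unplaced parts of chromosomes, with 9 on the plus and 11 on the minus strand. Of the 19 with an annotated region, 13 lie between genes and 6 over a UTR, coding sequence or intron. Precursor length ranged from 81 to 332 nt (median 182.5 nt), and the longest was that of novel_mir_152, at chr5:15063427-15063758 on the minus strand.

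Folded with RNAfold at 37°C, 12 to 21 bases of each mature strand were paired, with a median of 17. All bases were paired in novel_mir_16, whose precursor of 87 nt on chromosome 11 folded to -62.4 kcal/mol. Only 14 were paired in novel_mir_168 and in novel_mir_35. The refolded stem put the mature strand on the listed arm in 19 of the 20. The exception was novel_mir_44, in which 12 bases were paired, 4 of them with other bases of the mature strand itself. The free energy ranged from -129.6 kcal/mol for the 331 nt of novel_mir_172 to -18.2 kcal/mol for the 98 nt of novel_mir_144.

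A strand from the opposite arm is given in the study's tables for 4 of the 20, and it is shown because a sequenced partner is a usual criterion for a miRNA. Each line names the miRNA whose partner it is.
novel_mir_158: ttttgttgctggtcatctagtc
novel_mir_172: ccctgaaatggtgtccacaga
novel_mir_137: tacacatgtagtgccatcata
novel_mir_44: ccgatattgaggttaagctatgaca
The partners were 21 or 22 nt long except that of novel_mir_44, which was 25 nt long. Novel_mir_158 and novel_mir_172 each had 20 of 21 mature bases paired, and novel_mir_137 had 18.

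One miRNA of the group resembled a known grapevine miRNA. Novel_mir_212 was listed in CT only with 6 reads, or 0.232 TPM (0.106 to 0.505), from the 3p arm. Compared with 162 known sequences without gaps over at least 18 nt, it lay within 2 mismatches of 7 members of the miR399 family, which in Arabidopsis targets the PHO2 transcript and acts in phosphate homeostasis.
novel_mir_212: tGCCAAAGgagatttgccccg
vvi-miR399g: tGCCAAAGgagatttgcccct
vvi-miR399e: tGCCAAAGgagatttgcccgg
The seeds of all 3, in capitals, were identical. Written as known base, position from the 5′ end and base of novel_mir_212, vvi-miR399g differed by T21G and vvi-miR399e by G20C. The other 115 miRNAs had no such match. At 6 reads against a count of 0, the difference between the libraries did not meet the limit of 0.001 (Fisher's exact test, p = 0.0357, adjusted 0.0487).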

How the data were processed

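The authors trimmed adaptors, used SOAP2 to map reads without mismatch to the 12X build of PN40024, removed other non-coding RNAs and known precursors, and predicted miRNAs with Mireap. What the authors deposited are raw read counts for each mature sequence. A second pair of text columns, which the authors deposited beside the counts and which is of no numeric unit, gives precursor numbers, arms and reads per precursor. Prediction was numbered separately in each library, so few reads and a precursor that was not predicted cannot be told apart where a miRNA is unlisted.

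Since the table holds only 92912 (NCT) and 97572 (CT) reads, TPM used the clean reads given by the study. Each of the 299 miRNAs was tested between the libraries by Fisher's exact test (two-sided), with Benjamini-Hochberg adjustment over all 299. For log2 ratios 0.01 TPM replaced a count of 0. Folds against 0 were taken against 3 reads. Intervals of ratios are exact (Clopper-Pearson), and those of TPM are Wilson intervals. Those of a median ratio come from the ranked ratios of the miRNAs. No dispersion could be estimated with 1 library per condition.

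Precursor, partner and target-site sequences and genome positions came from the study's supplementary tables, joined by whole mature sequence. Novel_mir_162 had no match by sequence. The article does list, under another number, a miRNA lower in CT at 10.21 TPM in NCT and 0.01 TPM in CT, which is the level of novel_mir_162. Known miRNAs were compared by sequence only. The miRNAs named were the 10 with the highest counts, those past the limits, the 3 most read in each single library, the 3 highest and lowest ratios at 50 reads or more, and those sharing a run of 16 nt, a seed or a known match, or whose arm differed between libraries (none did). This gave 21 names. The members and lists were chosen with earlier results of these data known. Alternatives were other library totals, median-of-ratios and edgeR TMM factors, floors and limits, edgeR's exact test with an assumed variation, and summed shared runs. Python 3.11.15, scipy 1.17.1, RNAfold 2.7.2, R 4.3.3 and edgeR 4.0.16 were used.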

Additional observations from a re-analysis of the deposited data

How the results depend on the processing

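No paired analysis was possible because NCT and CT have 1 library each, and none could be left out. Of the counts, numbers and medians under other settings, 36 kept within their limits, 19 moved and 1 changed sign. The last was the summed log2 ratio of -0.97, at 0.023 when the names left out were included, an alternative chosen after seeing the data, with shares of the table's reads of 25.8% in NCT and 30.3% in CT. The 2 miRNAs lower in CT became 1 with the total of the table, the median of ratios, edgeR TMM or a limit of 50 TPM, 6 with 50 reads in place of the TPM limit, 23 without a TPM limit (10 higher) and 5 with the names left out included (1 higher). The median log2 ratio of -0.54 moved to -0.33 with the total of the table and to -0.13 with the median of ratios or edgeR TMM. At 50 reads or more, 15 miRNAs were listed in both libraries, 5 in NCT only and 0 in CT only. At 10 reads or more, 18 were listed in NCT only and 15 in CT only. The ratio of novel_mir_162 was -9.89, -9.79 and -9.79 with the total of the table, the median of ratios and edgeR TMM, where it fell under 10 TPM. These rest on 0.01 TPM for a count of 0, and the value was -6.46 at a floor of 3 reads.

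Signs turned for 6 named miRNAs, none of them called. With the total of the table, the log2 ratio was 0.14 for novel_mir_3, 0.13 for novel_mir_71, 0.021 for novel_mir_144 and 0.14 for novel_mir_199. With the median of ratios it was 0.34, 0.34, 0.22 and 0.34, and 0.075 for novel_mir_129 and 0.19 for novel_mir_158. With edgeR TMM it was 0.34, 0.34, 0.23 and 0.34, and 0.077 and 0.19 for the latter pair. These scalings add 0.21, 0.41 and 0.41 to every ratio of a miRNA listed in both libraries, which accounts for each change of sign. In edgeR's exact test with the variation set to 0.2 or 0.4 (as a coefficient), the calls stayed at 2 lower and 0 higher. This says little about variation between plantlets. The other miRNAs of the group at 10 TPM or more did not pass the limit on the log2 ratio, whatever variation was assumed. Depth limits most of the group, since 96 of the 116 miRNAs had fewer than 50 reads in both libraries.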
